A study of Mus musculus with 203 samples.

Results

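The renin-angiotensin genes described here are Agtr1a, Agtr1b, Agtr2, Agt, Ace and Mas1. They are 6 of the 43346 genes in a count table of mouse lung RNA-seq, matched from Ensembl identifiers to mouse symbols. The set was chosen by the measured counts of Agtr1a and Agtr1b, which were far lower in mice given house dust mite extract (HDM) for 3 weeks, and completed with other genes of the pathway. That 3-week contrast is therefore described below without a test. The other contrasts use other mice, except the comparison of airway with parenchyma at 3 weeks, which uses the same PBS libraries.

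All libraries came from female Balb/C mice labelled 18 to 20 weeks old, with no allele or transgene in any group. The mice of the 3-week arm received HDM or phosphate buffered saline (PBS) into the nose on 5 days a week for 3 weeks. In the 11-week arm HDM was given 3 times a week from week 4 to week 11, and controls again received PBS. These mice also breathed cigarette smoke (CS) or normal air (AIR), with CS given 2 times a day on 5 days a week for 8 weeks. Some groups were treated with dexamethasone (DEX), a synthetic glucocorticoid, in week 11. Lungs were divided under a microscope by blunt dissection into airway and parenchyma, the gas-exchanging tissue. The 3-week groups held 11 PBS airway, 12 PBS parenchyma and 10 HDM libraries of each tissue. Each of the 16 groups at 11 weeks (PBS.AIR, HDM.AIR, PBS.CS and HDM.CS, each without and with DEX, in both tissues) held 10. The labels do not tie an airway library to the parenchyma of the same mouse, so the tissue comparisons treat libraries as independent and p-values measure the spread between libraries.

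Angiotensinogen, the product of Agt, is cut by renin to angiotensin I, and the angiotensin-converting enzyme made from Ace trims that to angiotensin II. Angiotensin II acts through type 1 receptors (Agtr1a and Agtr1b, duplicated in rodents) and the type 2 receptor (Agtr2), and Mas1 encodes a receptor for angiotensin-(1-7). In the lung, ACE is best known from the capillary endothelium, and type 1 receptors from perivascular and mesenchymal cells.

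The 2 type 1 receptor genes are the members that chose the set, and their coding sequences are so alike that it matters whether reads can be told apart. Over 1080 coding bases each, Agtr1a and Agtr1b differed at 99 positions (90.8% identity), and the longest stretch with no difference was 66 bases. The first 150 coding bases, read from the GENCODE M21 transcripts (GRCm38/mm10), are shown here with the 10 differing positions in capitals.
Agtr1a: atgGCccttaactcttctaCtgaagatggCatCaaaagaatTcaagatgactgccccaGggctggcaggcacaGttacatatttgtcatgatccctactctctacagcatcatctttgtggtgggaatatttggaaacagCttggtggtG
Agtr1b: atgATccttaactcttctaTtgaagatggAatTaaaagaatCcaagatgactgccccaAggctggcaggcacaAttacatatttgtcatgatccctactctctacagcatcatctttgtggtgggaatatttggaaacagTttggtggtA
No window of 100 bases, the length of the reads, was shared between the 2 transcripts (0 of 2100 windows of Agtr1a and 0 of 2048 of Agtr1b). The counts of both genes were whole numbers in every library.

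Agtr1a (ENSMUSG00000049115.10) lies on chromosome 13 at 30336441-30382867 of mm10 and Agtr1b (ENSMUSG00000054988.9) on chromosome 3 at 20314473-20367177. Agtr2 (ENSMUSG00000068122.6) is on the X chromosome at 21484544-21489164 and Agt (ENSMUSG00000031980.9) on chromosome 8 at 124556534-124569706. Ace (ENSMUSG00000020681.10) is on chromosome 11 at 105967945-105989964 and Mas1 (ENSMUSG00000068037.6) on chromosome 17 at 12841079-12868143. Annotated genes overlap Agtr1a (Gm48161, sense intronic), Ace (Gm11651, antisense) and Mas1 (Airn, antisense, and Gm24085), and since the sources used here do not say whether strand was used in counting, reads from these overlaps cannot be assigned with certainty.

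Levels are CPM, counts scaled to a common library size after correction by the trimmed mean of M values. Library totals ran from 13003154 to 40240733 counts. The smallest, X32 (HDM.AIR.DEX parenchyma at 11 weeks), also had the lowest scaling factor (0.584) when all libraries of the series were scaled together. Leaving it out moved no value of its own group's contrasts past a threshold. Library X109, labelled HDM.AIR airway at 11 weeks, carried airway markers at the level of parenchyma. Its Krt5, a basal cell keratin, was 0.391 CPM against at least 8.07 in the other 9 airway libraries and at most 1.61 in the 10 parenchyma libraries of HDM.AIR. Its overall profile also correlated better with the parenchyma group (r = 0.990) than with its own (r = 0.977), the widest such gap among the 8 libraries of the series closer to the other tissue. The HDM effects in AIR airway are therefore given also without it, as are other values for which its absence changed a call.

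Ace was by far the most abundant member, and Mas1 the scarcest. Per kilobase of exon in PBS.AIR airway at 11 weeks, the mean level was 110.1 ± 47.4 CPM for Ace and 3.43 ± 0.73 for Agtr1a (SD, n = 10). Agtr1b (0.236 ± 0.071), Agtr2 (0.203 ± 0.122) and Agt (0.183 ± 0.059) lay far below Agtr1a, and Mas1 stood at 0.018 ± 0.024 CPM per kilobase. In PBS.AIR parenchyma Ace was at 239.2 ± 35.99 and Agtr1a at 4.60 ± 0.78 CPM per kilobase, whereas Agtr2 was at 0.0069 ± 0.0079. The level of Agtr1b there was 0.178 ± 0.080 and that of Agt 0.129 ± 0.022 CPM per kilobase.

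**Figure D1:**
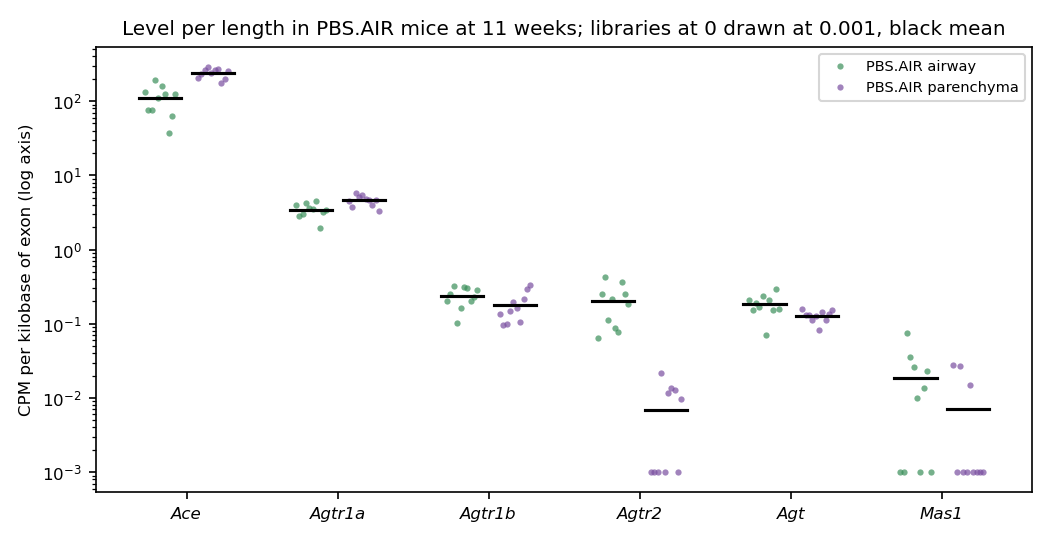
Level per length (CPM per kilobase of exon, log axis) of the 6 members in PBS.AIR mice at 11 weeks, with a point per library, a black line at each mean and libraries at 0 drawn at 0.001. Ace stands above every other member in both tissues, and Agtr2 is the member whose airway and parenchyma libraries (mean 0.203 against 0.0069) do not overlap.

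Tissue alone separated 3 members. Agtr2 was an airway transcript, while Ace and, by less, Agtr1a were higher in parenchyma. Agtr2, the type 2 receptor, ran from 0.217 to 1.40 CPM (median 0.672) in PBS.AIR airway and from 0 to 0.072 CPM (median 0.016) in parenchyma, where 5 of 10 libraries had no count and none had more than 2. Every airway library lay above every parenchyma library, and the difference was 4.11 ± 0.51 on the log2 scale (SE, adjusted p = 3.93e-12, limma-voom). In the 3-week PBS mice the same contrast was 3.21 ± 0.53 (adjusted p = 2.54e-06), with all 11 airway libraries above all parenchyma libraries. Such separation towards airway was seen in 10.3% of genes at 11 weeks and 7% at 3 weeks. Genes were tested where 9 or more libraries reached the level that 10 counts make in a library of median size, and Agtr2 reached it in no parenchyma library of either arm. It thus passed this filter through airway alone, and the separation is a description. With no filter the difference was 4.12 ± 0.41 at 11 weeks (adjusted p = 1.15e-16) and 3.24 ± 0.52 at 3 weeks (adjusted p = 2.34e-06). The airway samples also held fat, since 7 of 8 adipocyte markers were higher in airway (median log2 difference 6.94) and their summed level ran from 285 to 2665 CPM, against 16.4 to 29.9 CPM in parenchyma. Other summed markers also separated the PBS.AIR tissues without overlap. Smooth muscle markers were at least 556 CPM in airway and at most 292 CPM in parenchyma. Cardiac muscle markers were at least 308 against at most 43.3 CPM, and airway epithelium markers at least 42569 against at most 30577 CPM. The part of fat or of any of these tissues in the Agtr2 values was not tested.

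Ace ran from 200 to 1011 CPM (median 622) in PBS.AIR airway and from 935 to 1512 CPM (median 1302) in parenchyma. Of the 10 airway libraries, 9 lay below all those of parenchyma, and airway was lower by 1.21 ± 0.17 on the log2 scale (adjusted p = 9.25e-10) and by 0.71 ± 0.14 at 3 weeks (adjusted p = 5.24e-05). Agtr1a was lower in airway by 0.39 ± 0.12 at 11 weeks (adjusted p = 0.00218) and by 0.61 ± 0.08 at 3 weeks, with overlapping libraries. The 3-week value is given without a test, since the same PBS libraries served in choosing Agtr1a. Agtr1b (0.45 ± 0.30, adjusted p = 0.197) and Agt (0.43 ± 0.41, adjusted p = 0.386) did not pass the test at 11 weeks. The share of all genes that passed was 56.4% at 11 weeks and 56.1% at 3 weeks. Endothelial markers followed Ace, with 11 of 12 lower in airway (median log2 difference -1.11), and the part of endothelial content in the Ace difference was not tested. In bulk tissue, fewer cells of a type and less RNA per cell cannot be told apart.

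When the 20 groups were ranked by mean CPM, neighbours overlapped at all 19 steps for each of the 6 members. Agtr1a was highest in the 3-week PBS parenchyma (mean 15.6 CPM) and lowest in 3-week HDM parenchyma (2.19 CPM). Ace was highest in PBS.AIR parenchyma at 11 weeks (1265 ± 190 CPM, SD), well above PBS parenchyma at 3 weeks (474 ± 44 CPM), and these 2 groups did not overlap. Cdh5, an endothelial cadherin, differed the same way between them (607 ± 64 against 318 ± 36 CPM). The summed endothelial markers had medians of 6246 CPM (5151-6947) at 11 weeks and 4312 CPM (3834-4726) at 3 weeks. The 2 arms differ in time, in length of instillation and possibly in handling, which cannot be told apart.

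The 3-week HDM contrast picked the set, so its values follow as description alone. Agtr1a ran from 7.84 to 12.8 CPM (median 10.3) in PBS airway and from 1.55 to 3.19 CPM (median 2.33) after HDM. In parenchyma it ran from 12.0 to 18.5 CPM (median 15.6) in PBS and from 1.41 to 2.76 CPM (median 2.28) after HDM. No HDM library reached the lowest PBS library in either tissue. The fitted differences were -2.16 in airway and -2.89 in parenchyma on the log2 scale. For Agtr1b they were -3.81 and -4.43, from medians of 0.624 and 0.581 CPM to 0.037 CPM in airway and 0 in parenchyma, where 7 of 10 HDM libraries had no count. Ace stood at -0.77 and -0.97, Agt at -0.29 and -2.17 and Agtr2 in airway at -2.55. In this contrast 74.6% of genes passed the test in airway and 77.7% in parenchyma, 9.15% and 19.4% fell with no overlap, and the median over all genes in parenchyma was -0.13.

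At 11 weeks, in a separate set of mice, both type 1 receptor genes were again low after HDM in air. Agtr1a, the main type 1 receptor of mice, ran from 5.52 to 12.6 CPM (median 9.65) in PBS.AIR airway and from 1.74 to 4.05 CPM (median 3.06) in HDM.AIR airway. In parenchyma it ran from 9.18 to 16.2 CPM (median 12.9) in PBS.AIR and from 1.95 to 4.96 CPM (median 3.00) in HDM.AIR. In both tissues all 10 HDM.AIR libraries lay below all 10 PBS.AIR libraries. Agtr1a fell by 1.61 ± 0.16 in airway (SE, 3.05-fold, adjusted p = 7.27e-18) and by 1.90 ± 0.15 in parenchyma (adjusted p = 1.11e-23). The 2 falls differed by 0.29 ± 0.22 (adjusted p = 0.339).

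Agtr1b, the second type 1 receptor, had at most 27 counts in any library at 11 weeks, and most of these were in PBS mice. It ran from 0.220 to 0.683 CPM (median 0.513) in PBS.AIR airway and from 0 to 0.178 CPM (median 0.068) in HDM.AIR airway. In parenchyma it ran from 0.207 to 0.704 CPM (median 0.336) in PBS.AIR and from 0 to 0.103 CPM (median 0.035) in HDM.AIR. The HDM.AIR groups summed to 20 counts in airway and 10 in parenchyma, and 1 and 4 of their libraries had none. Again no libraries overlapped, and Agtr1b fell by 2.74 ± 0.40 in airway (adjusted p = 8.18e-10) and fell by 3.17 ± 0.46 in parenchyma (adjusted p = 7.02e-10). At 11 weeks Agtr1b reached the level of the filter on low counts in 32 PBS libraries and 1 HDM library, so it was kept through the PBS mice. With no filter it fell by 2.69 ± 0.40 (adjusted p = 3.27e-09) and fell by 3.14 ± 0.38 (adjusted p = 7.97e-13).

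Agtr2 fell by 2.55 ± 0.42 in airway (adjusted p = 4.38e-08), from a median of 0.672 to 0.080 CPM (range 0.031 to 0.292), and 9 of 10 HDM.AIR libraries lay below all of PBS.AIR. It too was kept through the PBS mice, with 27 PBS and 3 HDM libraries at the level of the filter, and with no filter it fell by 2.53 ± 0.51 (adjusted p = 8.81e-06). In parenchyma it summed to 6 counts in PBS.AIR and 3 in HDM.AIR, so a change was not detectable at this depth. A fall of the airway size could not have appeared there, and the 2 tissues are not compared. Of the 8 adipocyte markers, 7 fell with HDM in the same airway libraries (median -2.77), and their summed level went from 285-2665 CPM in PBS.AIR to 14.2-254 CPM in HDM.AIR. In these libraries the summed smooth muscle markers went from a median of 1232 to 440 CPM, with overlap. Cardiac muscle markers went from 1459 to 250 CPM, with overlap, and airway epithelium markers from 58048 to 19378 CPM, without overlap. The part of the adipocytes or of these other cells in the fall of Agtr2 was not tested.

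**Figure D2:**
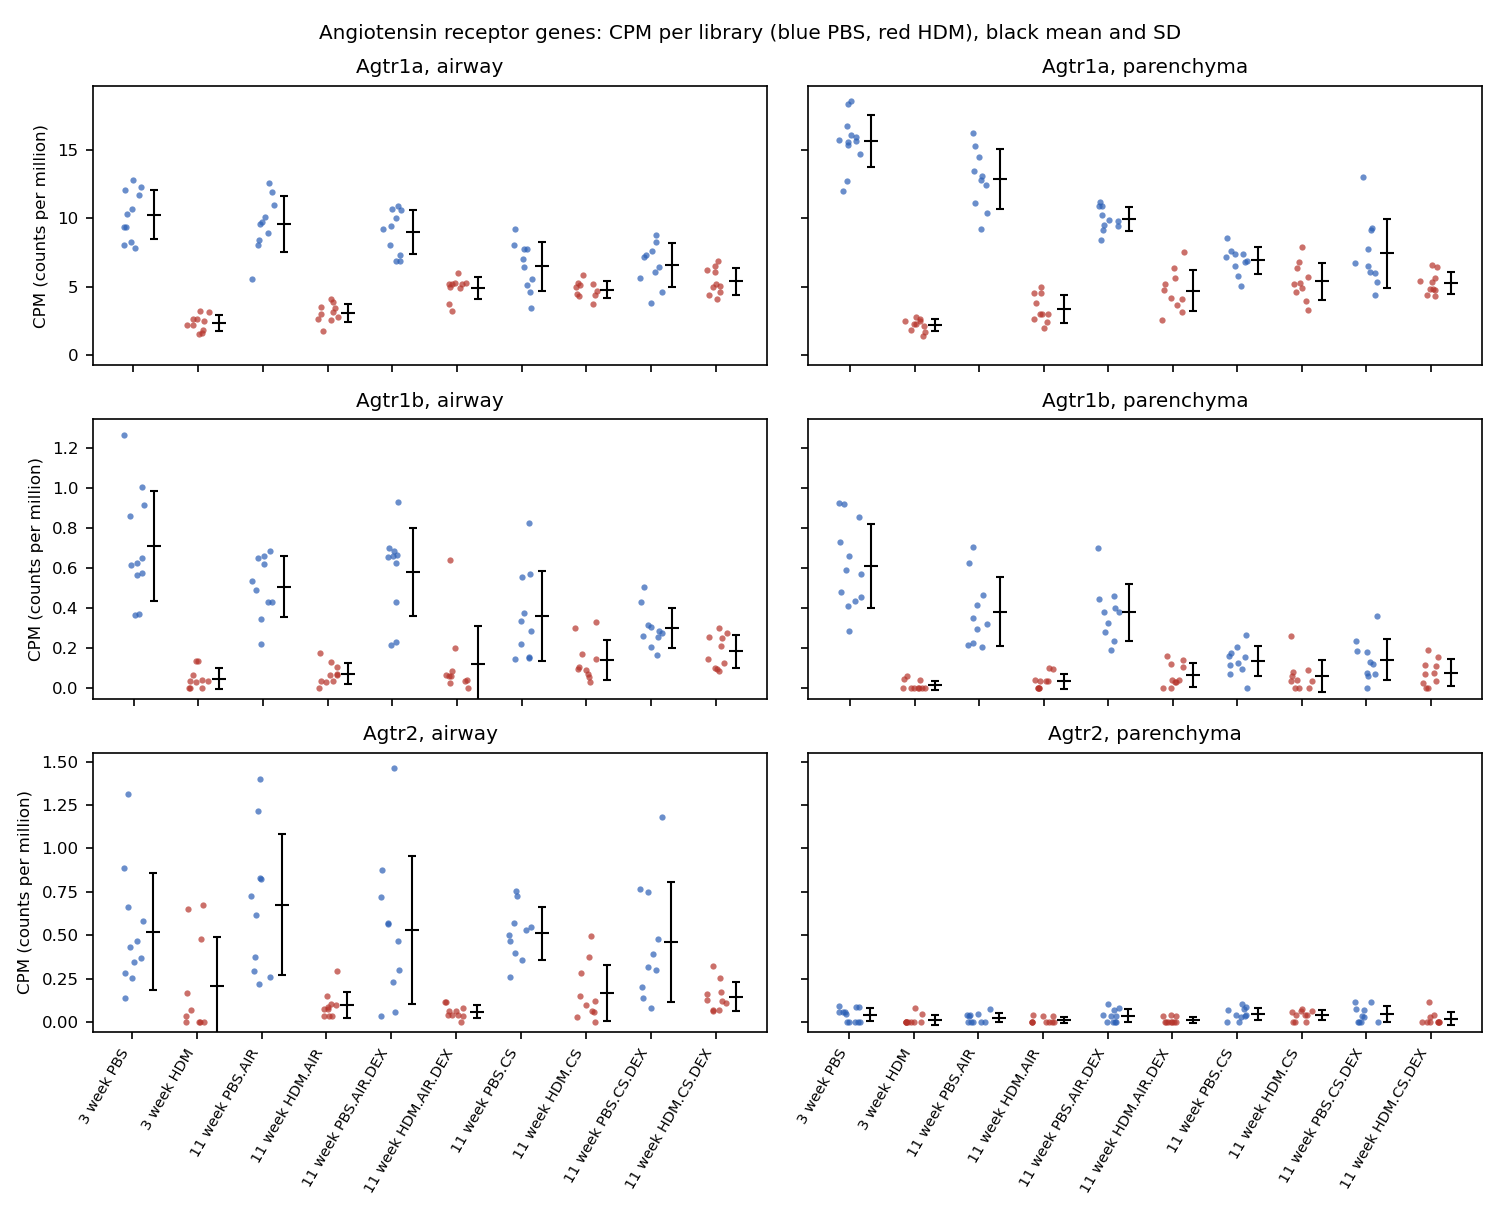
CPM of Agtr1a, Agtr1b and Agtr2 in each library of the 20 groups (blue PBS, red HDM), with the group mean and SD in black, airway at left and parenchyma at right. HDM libraries of Agtr1a and Agtr1b lie under the PBS libraries at 3 weeks and in AIR at 11 weeks, the CS groups overlap, and no parenchyma library of Agtr2 exceeds 0.117 CPM.

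Ace, the converting enzyme, fell with HDM more in parenchyma than in airway. In parenchyma it went from 935-1512 CPM to 237-703 CPM (median 516), with no overlap, a fall of 1.32 ± 0.17 (adjusted p = 2.11e-11). In airway it went from a median of 622 to 358 CPM (range 239 to 543), with overlap, a fall of 0.55 ± 0.16 (adjusted p = 0.00214). The difference between tissues was 0.77 ± 0.24 (adjusted p = 0.00897), a test that called 27.6% of all genes. With quality weights for the libraries it was 0.48 (adjusted p = 0.071) and no longer passed. Cdh5 fell by 1.199 ± 0.17 in parenchyma (adjusted p = 4.39e-10) and by 0.41 ± 0.16 in airway (adjusted p = 0.0224). All 12 endothelial markers were lower in parenchyma and 9 of 12 in airway, their summed level passing from 5151-6947 to 1172-3523 CPM in parenchyma and from 1460-4309 to 1243-2314 CPM in airway. Leukocyte markers rose at the same time (8 of 9 in each tissue). Fibroblast markers went from 2904-3848 to 1790-2340 CPM in airway and from 3138-3884 to 1571-2177 CPM in parenchyma, without overlap. Pericyte markers went from 522-670 to 300-464 CPM in parenchyma, without overlap, and from 337-560 to 273-442 CPM in airway, with overlap. The median of the summed smooth muscle markers went from 1232 to 440 CPM in airway and from 218.4 to 268.2 CPM in parenchyma, both with overlap. The part of these shifts in the fall of Ace or of the type 1 receptors was not tested.

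Agt, the precursor, was low in both tissues. In parenchyma it ran from 0.156 to 0.295 CPM (median 0.249) in PBS.AIR and from 0 to 0.280 CPM (median 0.123) in HDM.AIR. It fell there by 1.08 ± 0.48 (adjusted p = 0.0457), a call that edgeR (adjusted p = 0.068) and DESeq2 (adjusted p = 0.053) did not make. In airway the difference was -0.71 ± 0.42 (adjusted p = 0.139), or -0.32 without X109. Of the 6 members, 4 passed the test as lower in airway, where 29.8% of all genes did, and 4 in parenchyma, where 26.9% did. The groups did not overlap for 2 members in airway (6.03% of genes) and 3 in parenchyma (11.1%). Since Agtr1b and Agtr2 passed the filter through the PBS mice, these counts are a description. The same holds for the HDM contrasts of both genes under CS and DEX. Without X109 the airway values were -1.59 for Agtr1a, -2.90 for Agtr1b, -2.45 for Agtr2 and -0.57 for Ace, all still past the test.

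Mas1, the angiotensin-(1-7) receptor, never exceeded 7 counts in a library and failed the filter. Its groups summed to between 0 and 17 counts. Over 26 contrasts a permutation test on CPM gave no adjusted p below 0.529, and the lowest unadjusted p was 0.0203. The highest group, 3-week PBS airway, held 17 counts in 4 of 11 libraries, against 0 in the 12 libraries of 3-week PBS parenchyma (permutation p = 0.0742). Without the filter, edgeR called that contrast alone (adjusted p = 0.00554).

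Under smoke the HDM effect on Agtr1a was smaller in both tissues. Within CS mice, Agtr1a ran from 3.46 to 9.17 CPM (median 6.70) in PBS airway and from 3.72 to 5.83 CPM (median 4.82) in HDM airway, and the libraries overlapped. The difference was -0.36 ± 0.15 in airway (adjusted p = 0.0433) and -0.34 ± 0.15 in parenchyma (adjusted p = 0.143). The airway call was lost when any of 12 libraries was left out, each in turn. Agtr1b fell in airway by 1.30 ± 0.37 (adjusted p = 0.00315), and its parenchyma difference was -1.23 ± 0.48 (adjusted p = 0.086). In these contrasts 33.1% of genes passed in airway and 9.94% in parenchyma. The HDM effect on Agtr1a was weaker under CS than in AIR by 1.25 ± 0.21 in airway (adjusted p = 4.06e-06) and by 1.56 ± 0.21 in parenchyma (adjusted p = 4.44e-10). For Agtr1b the same difference was 1.44 ± 0.54 (adjusted p = 0.0454) and 1.94 ± 0.66 (adjusted p = 0.0139), and the airway call was not made by edgeR (adjusted p = 0.073), by DESeq2 (adjusted p = 0.051) or without the filter (adjusted p = 0.114). For Ace it was 0.69 ± 0.23 (adjusted p = 0.0254, or 0.076 with the tissues fitted separately) and 1.14 ± 0.24 (adjusted p = 5.91e-05). These interactions were called for 19.1% of all genes in airway and 36% in parenchyma. Agtr2 fell under CS as well, by 2.12 ± 0.40 in airway (adjusted p = 6.45e-06), and its interaction did not pass (0.42 ± 0.58, adjusted p = 0.666). Agtr1b and Agtr2 were kept by the filter through the PBS mice here too, so their values under CS are a description.

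Smoke lowered Agtr1a in PBS mice and raised it in HDM mice. In PBS mice, CS lowered Agtr1a by 0.61 ± 0.13 in airway (adjusted p = 0.000235) and by 0.88 ± 0.13 in parenchyma (adjusted p = 3.8e-09), where it ran from 5.02 to 8.55 CPM (median 7.02) and all 10 CS libraries lay below all AIR libraries, as for 3.28% of genes. In HDM mice, CS raised it by 0.64 ± 0.17 in airway (adjusted p = 0.00334, 9 of 10 libraries above all of HDM.AIR) and by 0.67 ± 0.17 in parenchyma (adjusted p = 0.000967). The HDM.CS parenchyma libraries ran from 3.32 to 7.85 CPM (median 5.21). PBS.AIR and HDM.AIR serve in both the HDM and the CS contrasts, so these values are not independent of the HDM effects in AIR.

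Agtr1b fell with CS in PBS parenchyma by 1.51 ± 0.38 (adjusted p = 0.000666, 8 of 10 libraries below all of PBS.AIR), from a median of 0.336 to 0.142 CPM. No PBS.CS library there reached the level of the filter on low counts (at most 0.268 against 0.353 CPM), so this value is a description. In airway the Agtr1b difference was -0.63 ± 0.30 (adjusted p = 0.17). Ace fell in PBS parenchyma by 0.63 ± 0.18 (adjusted p = 0.00251), to 544-1002 CPM (median 817), with 9 of 10 libraries below all of PBS.AIR, and its airway difference was -0.11 ± 0.17 (adjusted p = 0.752). In HDM mice CS raised Ace by 0.58 ± 0.16 in airway (adjusted p = 0.00679) and by 0.50 ± 0.17 in parenchyma (adjusted p = 0.0169, or 0.39 and 0.077 without library X90). Cdh5 moved by -0.34 ± 0.18 in PBS parenchyma (adjusted p = 0.119) and rose by 0.65 ± 0.17 in HDM parenchyma (adjusted p = 0.00150). Endothelial markers fell for 7 of 12 in PBS parenchyma and rose for 10 of 12 in HDM parenchyma, and pericyte markers fell for 5 of 9 in PBS parenchyma. With CS the summed fibroblast markers went from 3138-3884 to 2062-2960 CPM in PBS parenchyma, without overlap. In HDM parenchyma they went from 1571-2177 to 1899-2668 CPM, with overlap. The part of these cells was not tested.

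Agt, the precursor, passed the test with CS in HDM airway, though not without X109. It ran from 0.132 to 0.552 CPM (median 0.336) in PBS.AIR and from 0.163 to 1.16 CPM (median 0.675) in PBS.CS, a difference of 0.79 ± 0.36 (adjusted p = 0.139) that edgeR (adjusted p = 0.048) and DESeq2 (adjusted p = 0.035) called. In HDM airway CS raised it by 1.25 ± 0.40 (adjusted p = 0.0206), but without X109 the difference was 0.86 (adjusted p = 0.12). In PBS airway 1 of 6 members passed and 13.7% of genes did, in PBS parenchyma 3 of 6 and 35.9%, in HDM airway 3 of 6 and 16.2%, and in HDM parenchyma 2 of 6 and 24.1%. With DEX on both sides (3.93% of genes called in PBS airway and 18.2% in PBS parenchyma), CS lowered Agtr1a in PBS airway (by 0.48, adjusted p = 0.0115) and parenchyma (by 0.50, adjusted p = 0.00217) and Agtr1b in PBS parenchyma (by 1.52, adjusted p = 0.00128). The Agtr1b values in PBS parenchyma, also within the count of 3 of 6, are a description. The CS libraries there held at most 7 counts without DEX and 10 with it.

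**Figure D3:**
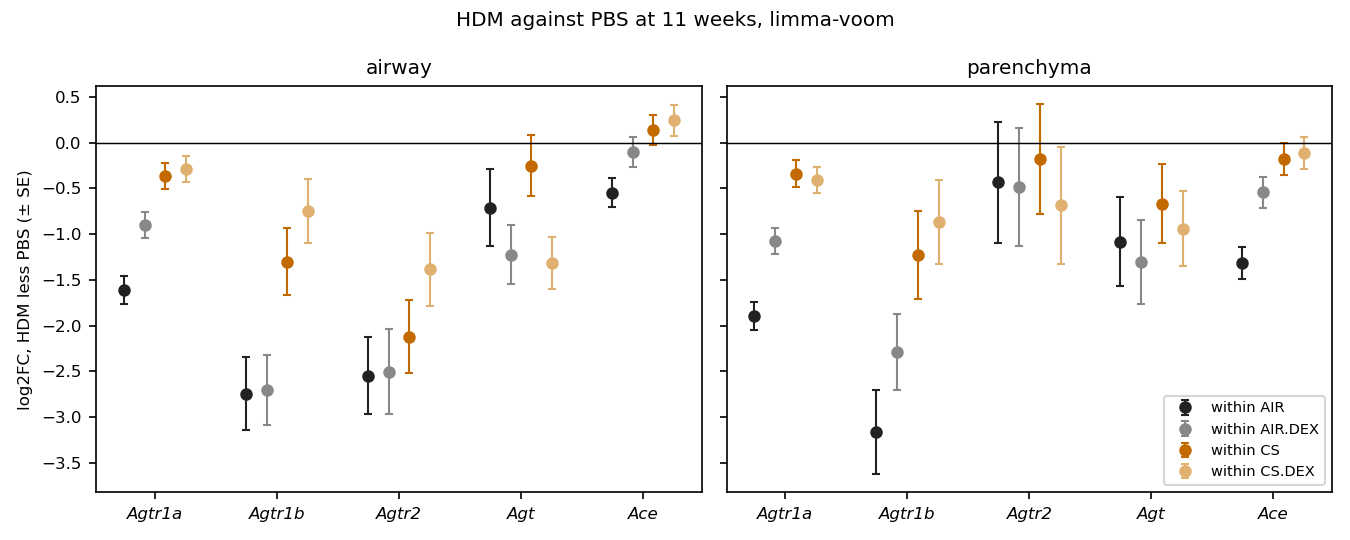
Fitted log2 fold change of HDM against PBS at 11 weeks (± SE) for 5 members within AIR, AIR.DEX, CS and CS.DEX mice, airway at left and parenchyma at right. Agtr1a moves from -1.61 in AIR to -0.36 under CS in airway and from -1.90 to -0.34 in parenchyma.

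Dexamethasone raised Agt in the airway of PBS mice, with air or smoke, and it raised Agtr1a in HDM.AIR mice, in which that receptor was low. In PBS.AIR airway Agt went from 0.132-0.552 CPM to 0.313-2.15 CPM (median 1.07), with 8 of 10 DEX libraries above all untreated ones, a rise of 1.58 ± 0.33 (adjusted p = 0.000229). In PBS.CS airway, where DEX called 11.3% of genes, it rose by 1.32 ± 0.29 (adjusted p = 0.000392), to 0.812-2.92 CPM (median 1.54). In HDM.AIR airway the rise was 1.063 ± 0.42 (adjusted p = 0.042), or 0.67 without X109 (adjusted p = 0.21). In HDM.CS airway the difference was 0.26 ± 0.33 (adjusted p = 0.738), and in PBS.AIR parenchyma it was 0.47 ± 0.41 (adjusted p = 0.464).

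**Figure D4:**
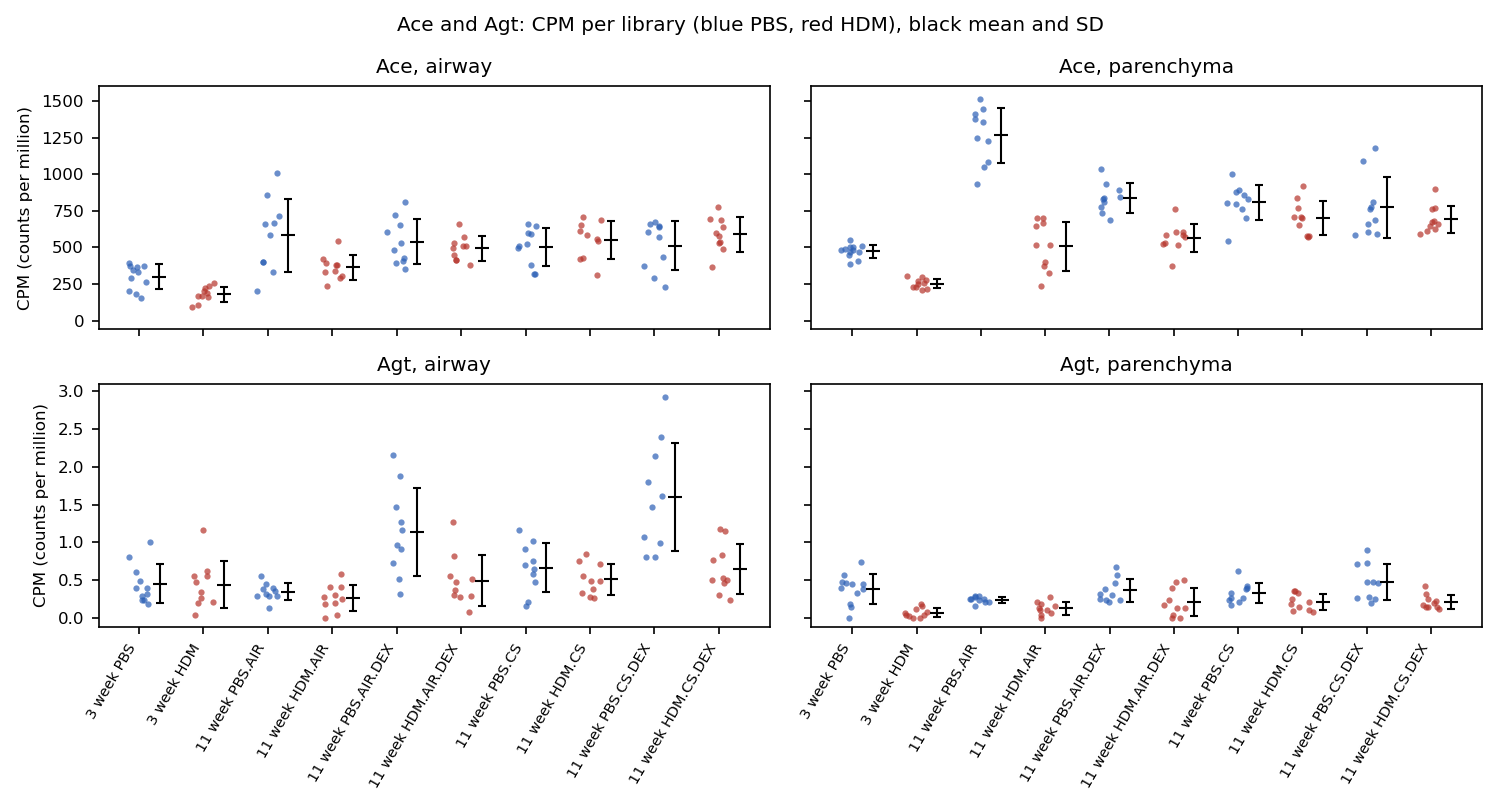
CPM of Ace and Agt in each library of the 20 groups (blue PBS, red HDM), with the group mean and SD in black. PBS.AIR parenchyma at 11 weeks holds the highest Ace values (935 to 1512 CPM), and the highest Agt values are in PBS airway with DEX (up to 2.92 CPM).

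Agtr1a showed no difference with DEX in PBS.AIR airway beyond its spread (-0.06 ± 0.12, adjusted p = 0.794) and fell in PBS.AIR parenchyma by 0.35 ± 0.12 (adjusted p = 0.0179). In HDM.AIR mice DEX raised it by 0.65 ± 0.17 in airway (adjusted p = 0.00168), to 3.22-5.96 CPM (median 5.17), and by 0.47 ± 0.17 in parenchyma (adjusted p = 0.0322), to 2.58-7.52 CPM (median 4.47). The parenchyma call was lost with quality weights. With DEX the median summed fibroblast markers went from 2003 to 2426 CPM in HDM.AIR airway and from 1762 to 2163 CPM in parenchyma. Endothelial markers went from 1604 to 2359 and from 2182 to 2893 CPM, and pericyte markers from 356 to 348 and from 368 to 327 CPM. The part of these cells was not tested. The HDM effect on Agtr1a within DEX mice was -0.90 ± 0.14 in airway (adjusted p = 1.32e-08) and -1.08 ± 0.15 in parenchyma (adjusted p = 2.86e-10), still without overlap, in contrasts that called 49.7% and 42.2% of genes (2.67% and 5.05% fell without overlap). It was weaker than without DEX by 0.71 ± 0.21 (adjusted p = 0.0265) and 0.82 ± 0.21 (adjusted p = 0.00437). Within DEX mice Agtr1b fell by 2.702 ± 0.38 with HDM in airway (adjusted p = 6.74e-10) and fell by 2.29 ± 0.42 in parenchyma (adjusted p = 1.5e-06). Its interactions were 0.04 ± 0.55 (adjusted p = 0.983) and 0.88 ± 0.62 (adjusted p = 0.38). HDM.AIR.DEX airway held 34 counts of Agtr1b, 17 of them in library X91. That library, at 0.643 CPM, lay inside the PBS.AIR.DEX range of 0.216 to 0.928 CPM. In parenchyma the libraries did not overlap (at most 0.163 against at least 0.191 CPM). In parenchyma DEX lowered Ace in PBS.AIR mice by 0.58 ± 0.18 (adjusted p = 0.00958), to 686-1037 CPM. Summed endothelial markers there went from a median of 6246 to 5113 CPM, and their part in the fall of Ace was not tested. The HDM effect on Ace was weaker under DEX by 0.78 ± 0.24 in parenchyma (adjusted p = 0.0207). In the fit without X109, a library that is in neither group here, HDM within AIR.DEX mice lowered Agt in airway (-1.22, adjusted p = 0.000465) and parenchyma (-1.31, adjusted p = 0.0114). That fit also had lower Agtr2 in airway (-2.50, adjusted p = 1.68e-06) and lower Ace in parenchyma (-0.54, adjusted p = 0.00524). Ace in airway (-0.098, adjusted p = 0.651) and Agtr2 in parenchyma (-0.48, adjusted p = 0.586) did not pass.

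In PBS.AIR mice DEX called 1 of 6 members in airway, where 14.9% of genes passed, and 2 in parenchyma, where 22.6% did. In HDM.AIR mice it called 3 in airway (28.6% of genes) and 1 in parenchyma (28.5%). The interaction with HDM was called for 1 member in airway (4.62% of genes) and 2 in parenchyma (12.4%). With both CS and DEX (33.6% of genes called in airway and 22% in parenchyma), HDM mice differed from PBS mice in airway for Agtr2 (-1.39, adjusted p = 0.0039) and Agt (-1.31, adjusted p = 0.00011) and in parenchyma for Agtr1a (-0.41, adjusted p = 0.0311).

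Among 43 other genes of the pathway, chosen with earlier results known, 37 passed the filter at 11 weeks. With HDM in AIR, 17 rose and 11 fell in airway (median 0.23), and 20 rose and 12 fell in parenchyma (median 0.26), while the median over all genes was 0.00 and 0.05. Of all genes, 31.3% rose and 29.8% fell in airway, and 32.6% rose and 26.9% fell in parenchyma. The share of falls among these 37 genes in airway was near that of all genes, and the share of rises was above it in both tissues. Since the list was chosen with results known, these shares are a description. In airway the largest falls among the pathway genes were in Cma1 (-1.66), a mast cell chymase that can form angiotensin II, Nr3c2 (-1.26), the mineralocorticoid receptor, and Apela (-1.23), a ligand of the apelin receptor. The largest rises were in the lysosomal protease Ctsd (2.36), the aminopeptidase Anpep (1.69) and Hsd11b2 (1.59), which inactivates glucocorticoids. In parenchyma the largest falls were in the apelin receptor ligands Apln (-2.05) and Apela (-1.64) and in Mme (-1.40), the peptidase neprilysin. The largest rises there were in the kininogen Kng2 (2.27), Ctsd (2.25) and the kinin receptor Bdkrb1 (2.04). Cma1 is also a mast cell gene, and the summed mast cell markers passed from 64.9-145.1 to 48.2-92.8 CPM in the same airway libraries.

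**Figure D5:**
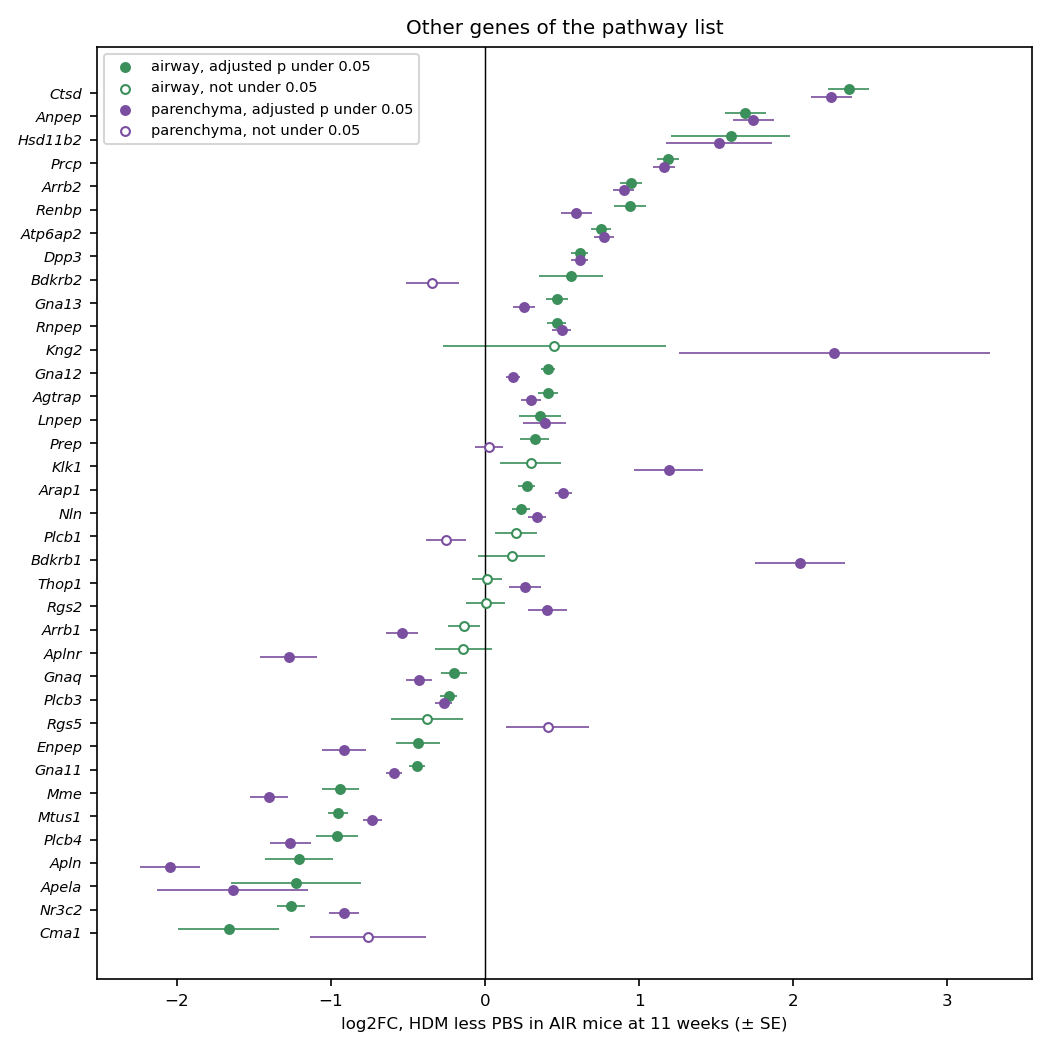
Fitted log2 fold change (± SE) of HDM against PBS in AIR mice at 11 weeks for the 37 tested genes of the pathway list, airway in green and parenchyma in purple, filled where the adjusted p is under 0.05. Ctsd and Anpep lie far to the right in both tissues, and Cma1 (-1.66) lies furthest left in airway.

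Ren1, renin itself, was not tested, since it had no more than 6 counts in a library and none in PBS.AIR, HDM.AIR or PBS.CS parenchyma.

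Smoke in PBS mice raised 10 pathway genes and lowered 2 in airway, and raised 14 and lowered 9 in parenchyma, of 37 tested. Of all genes it raised 7.66% and lowered 6.03% in airway, and raised 17.7% and lowered 18.2% in parenchyma. In airway the largest rises were in Kng2 (2.31), Hsd11b2 (1.53) and Ctsd (1.25), and the 2 falls were in the kallikrein Klk1 (-0.65) and Nr3c2 (-0.59). In parenchyma Hsd11b2 (1.85), Ctsd (1.83) and Bdkrb1 (1.14) rose most, and Cma1 (-1.53), Klk1 (-0.73) and the phospholipase Plcb4 (-0.70) fell most. DEX in PBS.AIR mice raised 6 and lowered 3 in airway, and raised 5 and lowered 5 in parenchyma, where Cma1 (-2.08) and Klk1 (-1.75) fell most and the G protein regulator Rgs5 (1.53) rose most. Of all genes DEX raised 8.03% and lowered 6.85% in airway, and raised 10.6% and lowered 12% in parenchyma.

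Likeness to other genes is given as a description, over points that share libraries and depth. Over the 20 group means of log2 CPM, Agtr1a ran closest to Hdgfl3 (r = 0.988), Rbpms (0.987), Reck (0.985), Tmem47 (0.984) and Rab3a (0.984). Over all single libraries less their group means, it ran closest to Nox4 (r = 0.672) and Lifr (0.668). Ace ran closest to Adgrl2 over the group means (r = 0.987) and to Cdh5 within groups (r = 0.901), followed by Slco2a1 (0.893). Agtr2 within groups ran closest to Bche (0.648), Lep (0.644), Ebf2 (0.644), Lctl (0.642) and Fabp4 (0.641), of which Lep and Fabp4 are adipocyte markers. Agtr1b (0.374 with Eid1) and Agt (0.502 with Apod) had no close partner within groups. Among the members, Agtr1a and Agtr1b correlated at 0.877 over the group means and 0.133 within groups.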

How the data were processed

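Bulk RNA-seq was measured in 20 groups of libraries. Per the study's methods, 100-base single reads were aligned by the authors to mm10 with GENCODE m21 annotation using STAR 2.5.1b and quantified with RSEM 1.2.31 and kallisto 0.44.0. The deposited values are expected counts per gene, not normalized. Which of the quantifiers made the table is not given in the sources used here, and 20.3% of the nonzero values were not whole. They were rounded for every fit. Of 43346 identifiers, 42462 matched GENCODE M21 without version and 23106 with it, so the table's annotation may differ from the one named.

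Genes were kept where 9 or more libraries reached the CPM that 10 counts make in a library of median size (18250 genes at 11 weeks, 17381 at 3 weeks), and 5 of 6 members passed in each fit. The study's cutoff, read as a CPM of 10 in 9 libraries, was an alternative. After TMM scaling, limma-voom (limma 3.58.1, edgeR 4.0.16, R 4.3.3) fitted all groups of an arm together with no covariate, and p-values were adjusted by Benjamini-Hochberg over all genes kept, with a threshold of 0.05. Errors are SE for log2 differences and SD for levels. Mas1 was tested by a two-sided permutation test with 100000 resamples on CPM. No 2 libraries of a group agreed within sampling noise. Fits were tested on simulated data. Alternatives were edgeR and DESeq2 (DESeq2 1.42.0), DESeq2 size factors, no filter, a CPM of 10, 1 fit of all libraries, separate tissues, sample quality weights, levels on raw totals and leaving out each library of the AIR and CS contrasts. Leaving out X109 and X32 in all contrasts was added after seeing the data.

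The members, the pathway list and the marker lists were chosen with earlier results of these data known. Genes named beside the members are the up to 3 pathway genes with the largest rise and fall past the test, Ren1, and the genes of highest Pearson r. 1 gene of the pathway list is not reported here and is left out of its counts.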

Additional observations from a re-analysis of the deposited data

Results flagged for a closer look

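A library far from the rest was sought in 82 pairs of a member and a group, and 8 were found. The 3-week PBS groups were not tested. A chance rate of about 1 in 20 holds for normally spread values, so it cannot be applied to pairs with few counts. In another 26 pairs all counts were at or under the floor of 3 counts and none was tested. Agt was highest in library X63 of the 3-week HDM airway (1.16 CPM, next 0.629). Agtr1b was highest in X91 of HDM.AIR.DEX airway (0.643 CPM), in X18 of HDM.CS parenchyma (0.263 CPM) and in X68 of PBS.AIR.DEX parenchyma (0.699 CPM). Agtr2 was highest in X9 of HDM.AIR airway (0.292 CPM, 8 counts). Mas1 was highest in X97 of HDM.CS airway (0.130 CPM), X145 of PBS.AIR airway (0.195 CPM) and X153 of PBS.CS airway (0.145 CPM), where the counts were 4, 6 and 5.

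The HDM effect differed between backgrounds or tissues, by an interaction term past the threshold, in 11 cases over the 5 members in the fit. The cases of Agtr1b and Agtr2 are a description, since the filter kept both genes through the PBS mice. Of all genes, the interaction with CS was called for 19.1% in airway and 36% in parenchyma. That with DEX was called for 4.62% and 12.4%, and that between tissues for 27.6%. Between CS and AIR the HDM effect differed for Agtr1a by 1.25 in airway and 1.56 in parenchyma, for Agtr1b by 1.44 and 1.94, and for Ace by 0.69 and 1.14 on the log2 scale. The Agtr1b value in airway was not called by edgeR or DESeq2 or without the filter, and the Ace value in airway was not called with the tissues fitted separately. Between DEX and no DEX it differed for Agtr1a by 0.71 in airway and 0.82 in parenchyma, and for Ace by 0.78 in parenchyma. Between airway and parenchyma it differed for Ace by 0.77, though not with quality weights. It also differed for Agtr2 by -2.12, a value that edgeR (adjusted p = 0.343) and DESeq2 (adjusted p = 0.172) did not call. Parenchyma held 6 counts of Agtr2 in PBS.AIR and 3 in HDM.AIR and could not have shown a fall of the airway size, so that value says nothing of the tissues.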

How the results depend on the processing

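Of 3368 values from alternatives to 90 log2 differences, 3298 kept the direction and the side of the threshold. Most of these values came from leaving out 1 library, which was usually not part of the contrast and could then hardly change it. That share is therefore no measure of how firm the results are. The fall of Agt with HDM in AIR parenchyma was no longer called with edgeR (-0.83, adjusted p = 0.068), DESeq2 (-0.87, adjusted p = 0.053) or no filter (-1.06, adjusted p = 0.060), nor without any of X10, X46, X50, X66, X86, X106, X110, X126, X130, X146, X150 or X186 (range -1.23 to -0.78). With a CPM of 10 as the filter, 2 members passed as lower in each tissue, where fewer members were tested. Leaving out a library left 3 to 4 members past the test in parenchyma. The leave-one-out ranges of the HDM effect in AIR were -1.72 to -1.55 and -1.97 to -1.86 for Agtr1a, -2.90 to -2.48 and -3.34 to -3.03 for Agtr1b and -0.69 to -0.44 and -1.42 to -1.21 for Ace in airway and parenchyma, and -2.73 to -2.42 for Agtr2 and -0.89 to -0.32 for Agt in airway.

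Quality weights turned 2 values that passed no test: Ace with HDM under CS in airway to -0.0078 and Agt in airway against parenchyma at 3 weeks to -0.020. The cause was not tested. The Agtr1a call with HDM under CS in airway was lost without X32, X33, X37, X73, X77, X93, X113, X117, X133, X137, X174 or X197. The rise of Agt with CS in HDM airway was lost without X9 or X109, with edgeR (0.91, adjusted p = 0.065) and with DESeq2 (0.92, adjusted p = 0.051). The Agtr1b interaction of HDM with CS in airway was not called by edgeR (1.42, adjusted p = 0.073), DESeq2 (1.47, adjusted p = 0.051) or without the filter (1.41, adjusted p = 0.114), and the tissue difference of Ace was not called with quality weights (0.48, adjusted p = 0.071). With quality weights, the effect of CS on Agtr1a in PBS.DEX airway (adjusted p = 0.144) and that of DEX on Agtr1a in HDM.AIR parenchyma (adjusted p = 0.095) were not called, while HDM under CS in parenchyma was called for Agtr1a (adjusted p = 0.020) and Agtr1b (adjusted p = 0.0034). The effect of DEX in HDM.AIR airway was not called without the filter for Agt (adjusted p = 0.066) and Ace (adjusted p = 0.061), nor was HDM in CS.DEX airway for Agtr2 (adjusted p = 0.058). With the tissues fitted separately, the Ace interaction of HDM with CS in airway was not called (adjusted p = 0.076). Single libraries of the DEX contrasts other than X32 and X109 were not left out in turn. No paired analysis was possible because the groups share no replicate numbers and the labels tie no airway library to a parenchyma library. Counts of a few reads limit Agtr1b after HDM, Agtr2 in parenchyma and Mas1 throughout.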
